A study of Homo sapiens with 12 samples.

Results

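The genes described here build cholesterol and fatty acids, or control that synthesis through the sterol regulatory element binding proteins (SREBPs). They were taken from a fixed list of 39 gene names, and each was read from its probe with the highest mean over all arrays. The arrays held a named probe for 37 of them, out of 20046 genes in all, while FDFT1 and ACSL3 are not analysed here. Measurements were made on 12 Illumina HT-12v4 bead arrays, in T47D-Y cells, which derive from the luminal breast cancer line T47D and have no progesterone receptor (PR). Cells carried the empty pIRES-neo3 vector (PR-null), wild-type PR-B (WT) or PR-B with the K388R mutation (KR), which removes the lysine that accepts the small protein modifier SUMO. Each line was deprived of serum for 1 day and then given ethanol vehicle or the synthetic progestin R5020 for 6 h, with 2 arrays for each of the 6 groups. The study asked how SUMO attachment to PR-B alters the genes that the receptor regulates. The receptor lines were grown out from single cells under G418 selection, so a receptor cannot be told apart from the clone that carries it.

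SREBPs are transcription factors held in the endoplasmic reticulum as precursors. SCAP escorts them to the Golgi apparatus, where proteases release the active part, and the INSIG proteins hold SCAP back when sterols are plentiful. SREBF2 encodes the form best known for cholesterol synthesis genes, and SREBF1 the forms best known for fatty acid synthesis genes. Breast epithelium makes lipid for milk, and progestins are known to induce lipid droplets and lipogenic enzymes in T47D breast cancer cells.

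Replicate arrays correlated at 0.995 and every array had a median log2 signal of 6.01. PGR, the gene of the receptor, lay at 5.38 to 5.46 on the 4 PR-null arrays, under the background limit of 6.09, and at 7.51 to 9.78 on the 8 arrays of the receptor lines. R5020 lowered PGR signal in WT cells by 0.97 and raised it in KR cells by 0.78 log2 units, so KR cells had 2.10 units more PGR signal than WT cells under R5020 (adjusted p = 1.42e-18, limma). All 7 luminal markers checked were above the limit on every array, against 1 of 3 basal, 1 of 5 fibroblast, 1 of 4 leukocyte and 0 of 4 endothelial markers. The mean of the luminal markers was 12.26 in WT cells with vehicle and 11.81 with R5020, and 12.35 and 12.04 in KR cells. KRT18 and GATA3 were called lower in WT and GATA3 in KR cells. KRT8, EPCAM and CDH1 were lower in both lines without a call. MUC1 differed by 0.069 in WT and 0.157 in KR cells, and KRT19 by 0.01 and -0.346, none of them called. The part of these shifts in the results was not tested. Of the 5 adipocyte markers 1 was above the limit on all arrays, their mean ran from 6.04 to 6.25 over the arrays, and the medians of ADIPOQ (5.95) and PLIN1 (5.75) lay under the limit. In bulk RNA, fewer expressing cells and less RNA per cell cannot be told apart.

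Among the 37 genes, 34 lay above the background limit on all 12 arrays and 35 on at least 2 arrays. STARD4, a sterol carrier, and ME1, the cytosolic malic enzyme, lay at or below it on all arrays. ACACB, the mitochondrial acetyl-CoA carboxylase, crossed it on 6 arrays. A call required a log2 difference of more than 0.6 in size (1.52-fold) together with an adjusted p below 0.01, taken over all probes. By this rule 7 genes were called in at least 1 of the 8 planned comparisons, and 30 in none. Single comparisons called from 0.0% to 5.29% of all genes, and up to 8.07% of genes above the limit on at least 2 arrays. The share of all genes called in at least 1 of the 8 was not counted, so these 7 are not read as many or few. The means of the 6 groups spanned a median of 0.41 log2 units per gene, against a median standard deviation between replicates of 0.12. Of the 37 genes 28 spanned less than 0.6 units, which was not counted over all genes. The largest spans were those of ELOVL5 (1.66), ACSL1 (1.28), LPIN1 (1.02) and SREBF1 (0.87).

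**Figure D1:**
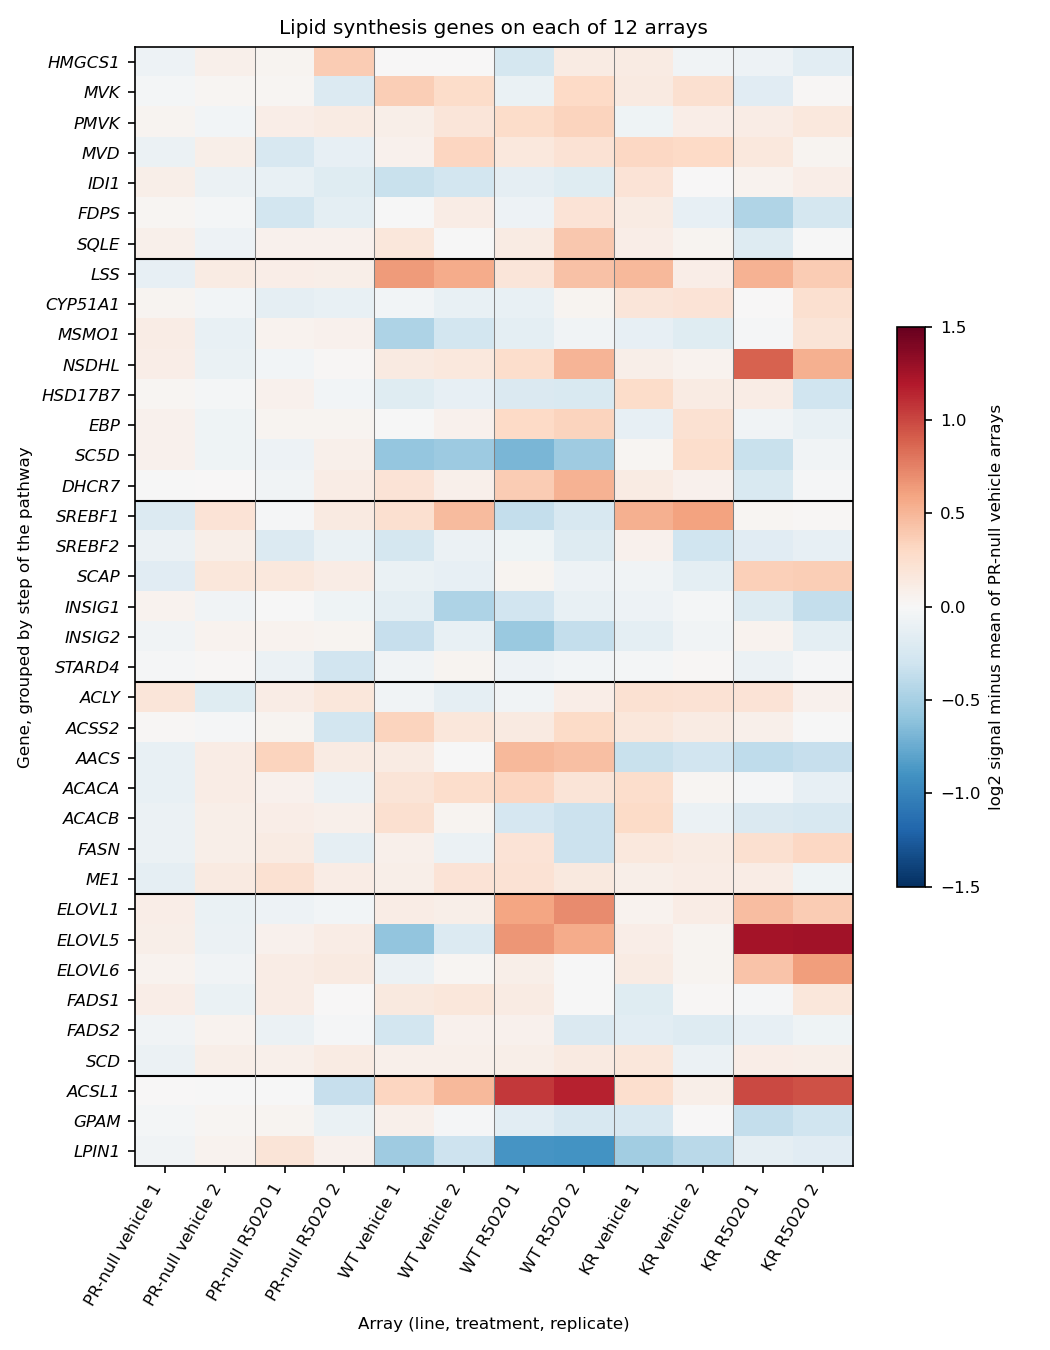
Signal of the 37 genes with a probe on each of the 12 arrays, as the log2 difference from the mean of the PR-null vehicle arrays (colour scale), with rows grouped by step of the pathway. ELOVL5 and ACSL1 are raised on all 4 R5020 arrays of the receptor lines, LPIN1 is lowest on the WT R5020 arrays, and most other rows stay pale.

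Promoter sequences are shown for the 3 genes that rose with R5020 in a receptor line, to set their motifs beside the array values. Each runs from 250 bases before to 50 bases after a transcription start and was taken from RefSeq (GRCh38.p14). Capitals mark the exact letters searched on both strands, namely the sterol regulatory element (SRE) TCACNCCAC, the E-box CACGTG and the CCAAT box ATTGG. ELOVL5 on chr6:53348901-53349200, minus strand, held an E-box starting 211 bases before the start site and CCAAT boxes at 122 and 68 bases. ACSL1 has 5 listed starts, and the window on chr4:184805504-184805803, minus strand, is the start that holds an SRE, 242 bases upstream and read on the reverse strand, with a CCAAT box at 215 bases. NSDHL on chrX:152830813-152831112, plus strand, held 5 CCAAT boxes, of which those at 113 and 110 bases overlap. For SREBF2 only the stretch around its SRE is shown, chr22:41832962-41832990, plus strand.
ELOVL5: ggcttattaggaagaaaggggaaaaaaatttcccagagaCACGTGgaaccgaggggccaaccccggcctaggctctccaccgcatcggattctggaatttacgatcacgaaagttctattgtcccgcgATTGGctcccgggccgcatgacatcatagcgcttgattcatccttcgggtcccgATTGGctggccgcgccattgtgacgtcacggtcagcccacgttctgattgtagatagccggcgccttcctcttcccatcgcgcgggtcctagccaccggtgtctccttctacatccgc
ACSL1: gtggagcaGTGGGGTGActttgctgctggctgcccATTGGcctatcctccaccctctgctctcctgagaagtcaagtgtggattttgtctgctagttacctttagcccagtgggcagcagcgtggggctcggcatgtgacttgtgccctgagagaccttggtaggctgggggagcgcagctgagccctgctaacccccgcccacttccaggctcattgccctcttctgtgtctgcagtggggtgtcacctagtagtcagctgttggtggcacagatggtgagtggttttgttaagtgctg
NSDHL: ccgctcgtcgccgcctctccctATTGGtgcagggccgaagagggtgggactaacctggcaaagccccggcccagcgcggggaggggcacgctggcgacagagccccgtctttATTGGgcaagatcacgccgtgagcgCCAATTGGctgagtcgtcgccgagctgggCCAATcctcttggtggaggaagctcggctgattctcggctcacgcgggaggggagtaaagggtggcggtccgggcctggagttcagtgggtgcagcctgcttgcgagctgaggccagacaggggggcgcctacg
SREBF2: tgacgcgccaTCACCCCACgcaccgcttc

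RefSeq promoters were found for 36 of the listed genes, 54 windows in all with alternative starts. The SRE letters stood in 2 of these windows (3.7%), those of ACSL1 and SREBF2, against 1.13% of all 35116 promoters of the same length. CCAAT boxes stood in 55.6% of the windows against 34.6% of all promoters, and the E-box in 11.1% against 7.26%. The full progesterone response element, GNACA and TGTNC separated by 3 bases, was in 0 of the 54 windows and in 0.39% of all promoters. The half-site letters TGTTCT stood in 3.7% of the windows, those of PMVK and of an ACSL1 start other than the one shown, against 14.8% of all promoters. None of these motifs was found in the SREBF1 window. A match here describes letters only, and a window without one says nothing of elements elsewhere.

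The question in PR-null cells was whether R5020 acts without the receptor. No gene of the pathway was called, and 0.0% of all genes were called. At an unadjusted p under 0.05 limma listed 1 of the 37 genes and 937 of all genes. Every one of the 37 intervals (95%) lay within 0.6 log2 units of 0, as did those of 99.7% of all genes. Differences ran from -0.21 for FDPS to 0.23 for AACS. The median difference was 0.032 over the 37 genes and 0.003 over all genes.

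In WT cells R5020 raised the fatty acid elongase ELOVL5 and the acyl-CoA synthetase ACSL1 and lowered SREBF1. These 3 called genes were 8.11% of the 37, against a background of 5.29% of all genes and 8.07% of genes above the limit on at least 2 arrays. In KR cells ELOVL5 and ACSL1 rose again, joined by NSDHL, a sterol dehydrogenase of the late cholesterol pathway, and no gene was called lower. That was again 8.11%, against 4.08% of all genes and 6.22% of genes above the limit. The share of called genes was therefore near that of other detected genes in both lines. The median difference over the 37 genes was 0.034 in WT and -0.052 in KR cells, beside -0.012 and -0.016 over all genes. In WT cells 30 genes had intervals that stayed within 0.6 log2 units of 0 (81.1%, against 87.5% of all genes and 81.2% of genes above the limit). In KR cells 31 did (83.8%, against 90.7% of all genes and 86.1% of genes above the limit). The sign was the same in both lines for 20 genes, which was not counted over all genes.

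**Figure D2:**
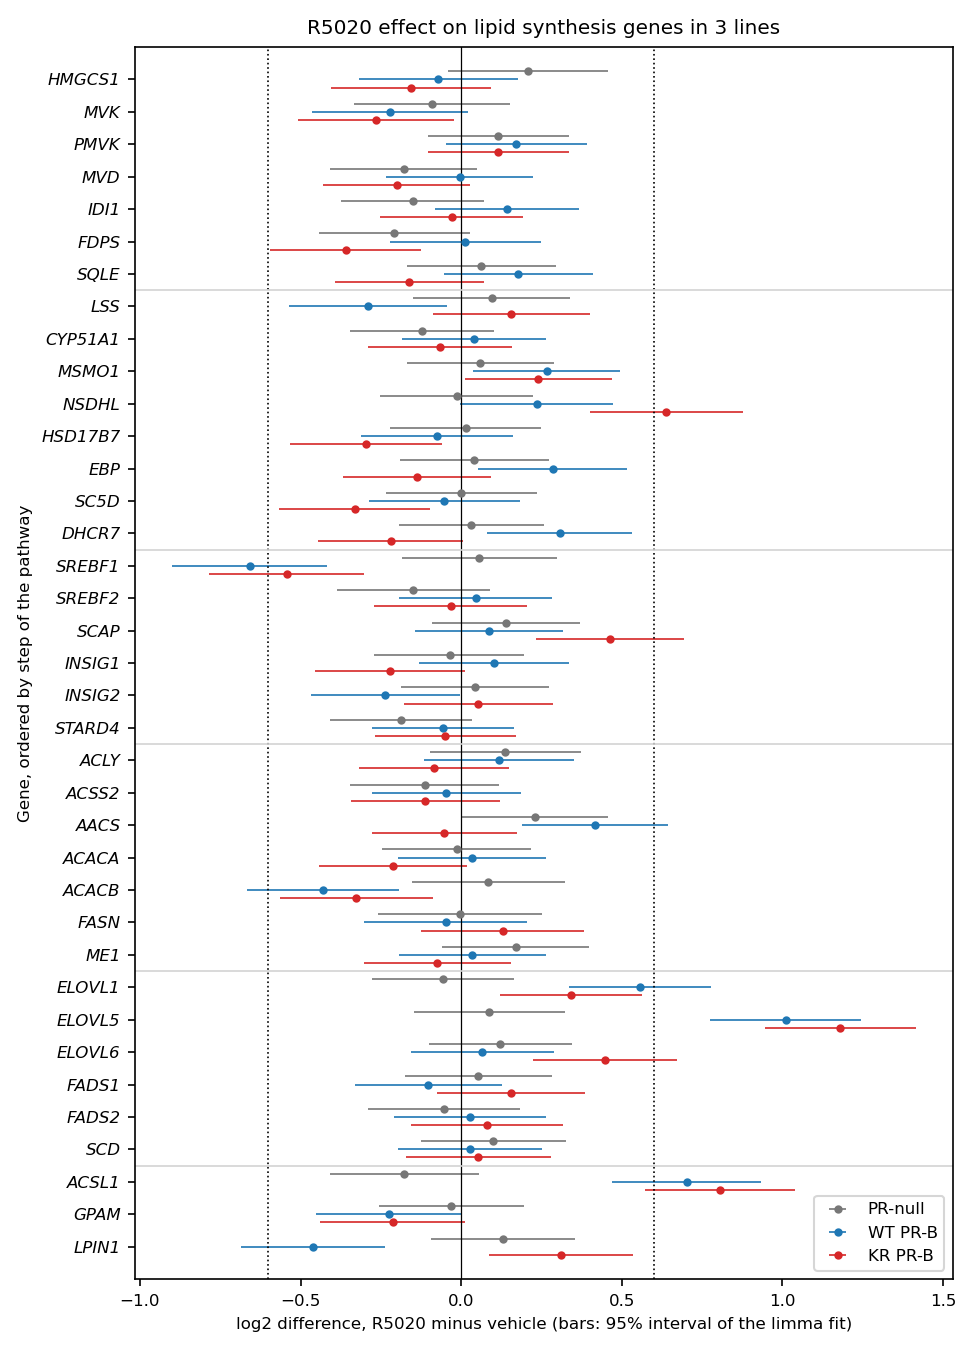
Difference between R5020 and vehicle in log2 units for the 37 genes in PR-null, WT and KR cells, with 95% intervals from the limma fit as bars and dotted lines at the threshold of 0.6. ELOVL5 and ACSL1 lie beyond the threshold in both receptor lines, SREBF1 in WT cells and NSDHL in KR cells.

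Regulators came first in the order of the pathway. SREBF1 signal was 9.11 and 9.35 on the WT vehicle arrays and 8.51 and 8.63 on the WT R5020 arrays. KR cells had 9.40 and 9.48 with vehicle and 8.90 and 8.89 with R5020. In PR-null cells it was 8.67 and 9.07 with vehicle and 8.85 and 9.01 with R5020. Treated arrays thus lay below untreated arrays in both receptor lines, without overlap, while the PR-null groups overlapped. SREBF1 fell by 0.66 log2 units in WT cells (SE 0.12, adjusted p = 6.62e-05). In KR cells the difference was -0.54 (SE 0.12, adjusted p = 0.00142), short of the threshold of 0.6 and so not called. The KR effect minus the WT effect was 0.115 (SE 0.169, adjusted p = 0.921), so a difference between the lines was not shown. The 2 dimmer SREBF1 probes differed by -0.38 and -0.45 in WT cells and by -0.52 and -0.43 in KR cells. The WT call was lost when the mean over the probes was used (-0.50) and without WT vehicle replicate 2 (-0.54).

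No other regulator was called with R5020. SREBF2 lay between 6.10 and 6.49 on all arrays, close to the background limit, and its R5020 difference was 0.046 in WT (95% interval -0.19 to 0.28) and -0.033 in KR cells (-0.27 to 0.21). SCAP was 9.60 and 9.51 on the KR vehicle arrays and 10.02 and 10.03 on the KR R5020 arrays. The difference was 0.46 (SE 0.11, adjusted p = 0.00529), under the threshold of 0.6. In WT cells SCAP differed by 0.087, and the KR effect exceeded the WT effect by 0.38 (adjusted p = 0.434), so a difference between the lines was not shown. INSIG1, a bright probe at 11.19 to 11.71, differed by 0.10 in WT (-0.13 to 0.34) and by -0.22 in KR cells (-0.46 to 0.012). Its second, dimmer probe, above the limit on all 12 arrays, gave 0.091 in WT and -0.385 in KR cells (adjusted p = 0.0178). With vehicle, that probe differed by -0.59 between WT and PR-null cells (adjusted p = 0.000111). Between KR and WT cells it differed by 0.496 (adjusted p = 0.00456), and both values were under the threshold of 0.6 in size. INSIG2, at 8.02 to 8.64, differed by -0.24 in WT (-0.47 to -0.005) and by 0.054 in KR cells (-0.18 to 0.29).

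From acetyl-CoA to squalene, the 7 genes with a probe comprised the synthase HMGCS1, the mevalonate enzymes MVK, PMVK and MVD, the isomerase IDI1, the synthase FDPS and the epoxidase SQLE. None was called in any R5020 comparison, beside 5.29% of all genes called in WT and 4.08% in KR cells. The 7 had a median difference of 0.013 in WT cells and -0.16 in KR cells. In KR cells 6 of the 7 were below 0, as were 10834 of all 20046 genes. For all 7 the effect in KR cells minus that in WT cells was below 0, as it was for 10065 of all 20046 genes. The median was -0.17 against -0.001 over all genes, and values ran from -0.37 for FDPS to -0.044 for MVK. No single one of these differences passed the test. SQLE, which forms the epoxide that sterol cyclisation starts from, was 12.16 and 11.99 in WT cells with vehicle and 12.11 and 12.39 with R5020. KR arrays read 12.09 and 12.03 with vehicle and 11.80 and 11.99 with R5020. Its differences were 0.18 (-0.05 to 0.41) and -0.16 (-0.39 to 0.07).

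Of the 8 genes from squalene to cholesterol, NSDHL was the one called with R5020, in KR cells (12.5%, beside 4.08% of all genes). It was 10.30 and 10.26 on the KR vehicle arrays and 11.10 and 10.74 on the KR R5020 arrays. In WT cells it was 10.35 and 10.37 with vehicle and 10.47 and 10.72 with R5020, and in PR-null cells it stayed at 10.11 to 10.32. Both R5020 arrays of KR cells were above every other array, and the replicates differed most in that group. NSDHL rose by 0.64 in KR cells (1.56-fold, SE 0.12, adjusted p = 0.00012) and differed by 0.23 in WT cells (adjusted p = 0.281). The difference between those effects was 0.41 (SE 0.17, adjusted p = 0.401) and is not shown to differ from 0. Without KR R5020 replicate 1 the KR difference was 0.46 (adjusted p = 0.0441) and the call was lost.

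The 7 others of this stretch, LSS, CYP51A1, MSMO1, HSD17B7, EBP, SC5D and DHCR7, were not called with R5020. DHCR7, the last enzyme of one branch to cholesterol, was 11.61 and 11.48 in WT cells with vehicle and 11.78 and 11.92 with R5020, and 11.53 and 11.47 against 11.17 and 11.38 in KR cells. Its effects were 0.31 in WT and -0.22 in KR cells, and their difference of -0.53 (SE 0.16) had an adjusted p of 0.116. A second DHCR7 probe, also above the limit on all 12 arrays, gave 0.13 in WT and 0.054 in KR cells, a difference of -0.074.

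None of the 7 genes of acetyl-CoA supply and fatty acid synthesis was called with R5020, beside 5.29% of all genes in WT and 4.08% in KR cells. FASN, the fatty acid synthase, was among the brightest of these probes, at 12.68 to 13.31 over all arrays, and differed by -0.048 in WT (-0.30 to 0.21) and by 0.13 in KR cells (-0.13 to 0.38). ACACA, the carboxylase that commits acetyl-CoA to fatty acids, lay at 9.81 to 10.26 and differed by 0.034 in WT (-0.20 to 0.27) and by -0.21 in KR cells (-0.44 to 0.018). SCD, the stearoyl-CoA desaturase, stayed at 13.47 to 13.72 and differed by 0.028 in WT and 0.054 in KR cells. ACLY and ACSS2, which supply acetyl-CoA, were not called in any comparison. ACACB, at 6.36 and 6.16 with vehicle in WT cells, was under the background limit on the R5020 arrays of both receptor lines, with measured differences of -0.43 (adjusted p = 0.0112) and -0.33 (adjusted p = 0.103). AACS differed by 0.42 in WT (SE 0.11, adjusted p = 0.00943, under the threshold of 0.6) and by -0.052 in KR cells.

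Elongation held the largest response of the pathway. ELOVL5, which lengthens polyunsaturated fatty acids, was 8.85 and 9.23 on the WT vehicle arrays and 10.10 and 10.001 on the WT R5020 arrays. In KR cells it was 9.54 and 9.48 with vehicle and 10.69 and 10.70 with R5020. In PR-null cells it was 9.53 and 9.35 with vehicle and 9.51 and 9.55 with R5020. The 4 R5020 arrays of the receptor lines were above all 8 others. ELOVL5 rose by 1.01 in WT cells (2.01-fold, SE 0.12, adjusted p = 4.68e-09) and by 1.18 in KR cells (2.27-fold, SE 0.12, adjusted p = 8.59e-11). The effects differed by 0.17 (95% interval -0.16 to 0.50), so a difference between the lines was not shown.

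ELOVL1, an elongase of saturated very long chains, was 9.01 and 8.99 in WT cells with vehicle and 9.502 and 9.62 with R5020, against 8.96 and 9.01 and then 9.37 and 9.29 in KR cells. Groups did not overlap in either line, yet the differences of 0.56 in WT (SE 0.11, adjusted p = 0.000235) and 0.34 in KR cells (adjusted p = 0.0527) were not past both thresholds. ELOVL6, which acts on palmitate, was 8.08 and 8.001 with vehicle and 8.38 and 8.59 with R5020 in KR cells. It differed by 0.45 in KR (adjusted p = 0.00557, under the threshold of 0.6) and by 0.066 in WT cells. Its second, dimmer probe gave 0.13 in KR and 0.22 in WT cells. The desaturases FADS1 and FADS2 were not called. All 6 genes of elongation and desaturation had a positive difference in KR cells, as did 9212 of all 20046 genes. The 6 had a median of 0.25 against -0.016 over all genes, and 1 of the 6 was called, beside 4.08% of all genes.

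ACSL1 activates long-chain fatty acids to acyl-CoA, for storage or oxidation. Its signal was 9.70 and 9.86 on the WT vehicle arrays and 10.44 and 10.53 on the WT R5020 arrays. KR cells had 9.63 and 9.47 with vehicle and 10.37 and 10.34 with R5020. PR-null cells had 9.39 and 9.37 with vehicle and 9.37 and 9.04 with R5020. All 4 arrays of receptor lines with R5020 again stood above the rest. The gene rose by 0.70 in WT cells (1.63-fold, SE 0.12, adjusted p = 1.18e-05) and by 0.81 in KR cells (1.75-fold, SE 0.12, adjusted p = 9.79e-07). The 2 effects differed by 0.10 (95% interval -0.23 to 0.43).

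Whether the responses differed from those of cells without receptor was tested as well, in comparisons added after the data were seen. These share the PR-null arrays. The WT effect exceeded the PR-null effect for ELOVL5 by 0.92 (adjusted p = 9.68e-05) and for ACSL1 by 0.88 (adjusted p = 0.000188), and for ELOVL1 by 0.61 (adjusted p = 0.00928). SREBF1 differed by -0.72 (adjusted p = 0.00451). These 4 genes were 10.8% of the 37, beside 5.21% of all genes and 7.94% of genes above the limit. The KR effect exceeded the PR-null effect for ELOVL5 by 1.09 (adjusted p = 5.45e-06) and for ACSL1 by 0.98 (adjusted p = 3.55e-05), 5.41% of the 37 beside 3.75% of all genes and 5.68% of genes above the limit. SREBF1, with -0.60, and NSDHL, with 0.65, had adjusted p-values of 0.0325 and 0.0139 in KR cells and were not called. The ELOVL1 call was lost in 7 of the 8 settings that left out 1 array, with values from 0.51 to 0.67. The SREBF1 call was lost in 4 of them, where values ran from -0.66 to -0.51, and with the mean over its probes (-0.51).

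The direct comparison of KR with WT asks what the K388R mutation changes in the response. LPIN1 alone was called, 1 of 37 genes (2.7%) against 1.01% of all genes and 1.54% of genes above the limit. LPIN1 encodes a phosphatidate phosphatase of triglyceride synthesis that also acts with nuclear receptors. It was 9.76 and 9.98 on the WT vehicle arrays and 9.41 and 9.40 on the WT R5020 arrays. In KR cells it was 9.77 and 9.90 with vehicle and 10.17 and 10.12 with R5020. In PR-null cells all arrays were higher, at 10.24 and 10.35 with vehicle and 10.49 and 10.36 with R5020. Treated WT arrays were thus the lowest of all 12, and treated KR arrays lay above untreated KR arrays. The effects were -0.46 in WT cells (SE 0.11, adjusted p = 0.00316) and 0.31 in KR cells (SE 0.11, adjusted p = 0.0994), neither past both thresholds. Their difference was 0.77 (SE 0.16, adjusted p = 0.00327). Of the 8 settings that left out 1 array, whose values ran from 0.66 to 0.88, the call held without WT vehicle replicate 1 and without KR vehicle replicate 2. It was lost in the other 6, with an adjusted p of up to 0.0585 without WT vehicle replicate 2.

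**Figure D3:**
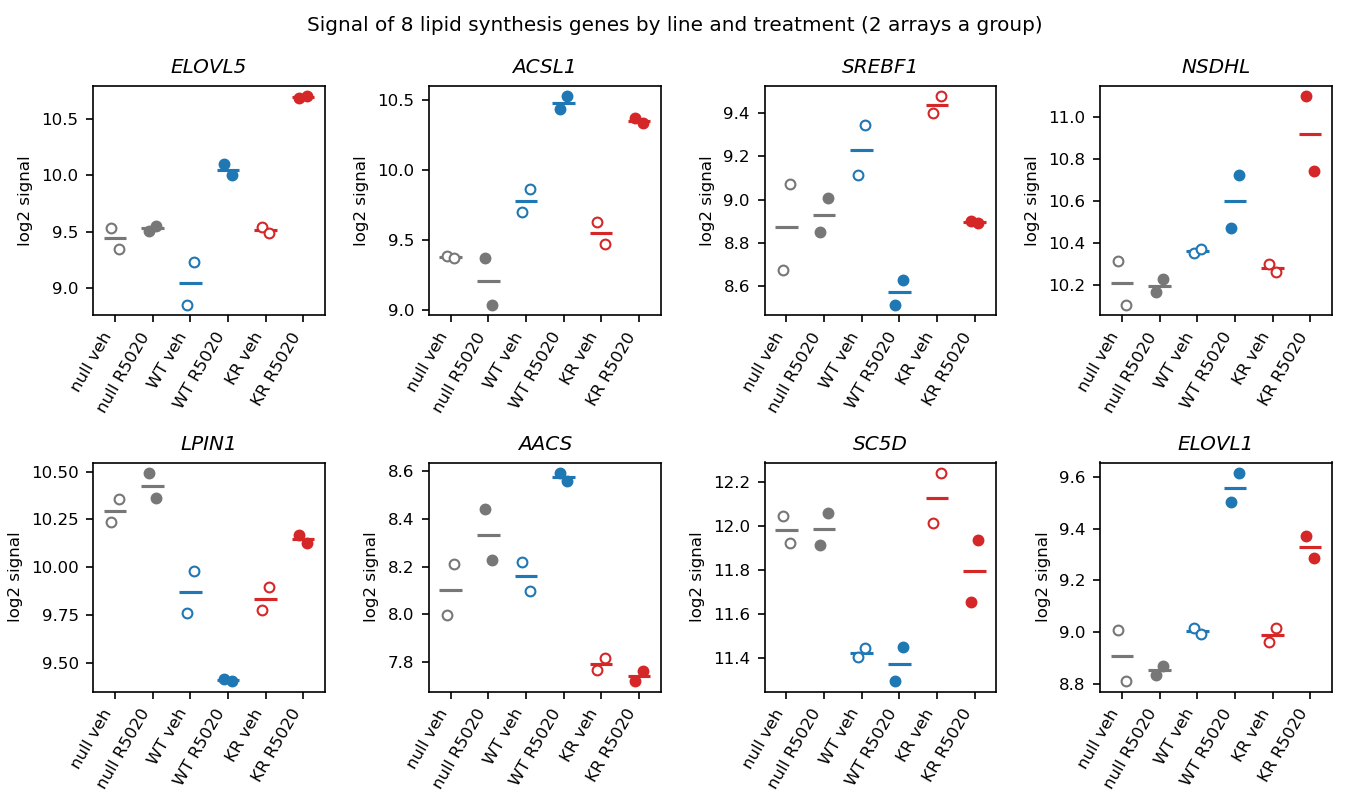
Log2 signal of 8 lipid synthesis genes by line and treatment, with 1 point per array, open for vehicle and filled for R5020, and a bar at the mean of 2 arrays. Each panel has its own axis range, and levels are not comparable between panels. ELOVL5 and ACSL1 rise with R5020 in WT and KR cells. SREBF1 lies lower with R5020 in both, called in WT cells only, and LPIN1 separates the lines under R5020.

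With R5020 present, 3 of the 37 genes differed between KR and WT cells (8.11%, against 2.56% of all genes and 3.9% of genes above the limit). LPIN1 was higher in KR cells by 0.74 (1.67-fold, SE 0.11, adjusted p = 5.98e-06), and ELOVL5 by 0.65 (1.56-fold, SE 0.12, adjusted p = 0.000133). AACS, which makes acetoacetyl-CoA from ketone bodies for lipid synthesis, was lower by 0.84 (SE 0.11, adjusted p = 5.3e-07). With vehicle, KR differed from WT cells by 0.475 in ELOVL5 (adjusted p = 0.0163) and by -0.034 in LPIN1 (adjusted p = 0.959), neither called. AACS signal was 8.59 and 8.56 on the WT R5020 arrays and 7.72 and 7.76 on the KR R5020 arrays. With vehicle it was 8.22 and 8.10 in WT and 7.77 and 7.82 in KR cells, and in PR-null cells it was 7.998 to 8.44. The KR arrays lay below all others, with and without hormone, and the WT arrays were highest with hormone. DHCR7 differed by -0.57 (adjusted p = 0.000465), just outside the threshold, and by -0.17 on its second probe (adjusted p = 0.604). The ELOVL5 call was lost without WT R5020 replicate 2 (0.60, adjusted p = 0.0088). PGR signal differed between the same arrays, as given above, and its part was not tested.

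Without hormone the lines differed in 1 gene of the pathway. SC5D, the desaturase of the late sterol pathway, was 12.01 and 12.24 in KR cells with vehicle and 11.40 and 11.44 in WT cells, and 12.04 and 11.92 in PR-null cells. WT arrays stood below those of both other lines. SC5D was higher in KR than in WT cells by 0.71 (1.63-fold, SE 0.12, adjusted p = 9.28e-05), 1 of 37 genes (2.7%) against 0.853% of all genes and 1.3% of genes above the limit, and the call was lost without KR vehicle replicate 2 (0.59, adjusted p = 0.0233). Neither receptor line differed from PR-null cells by the call rule. For WT cells this was 0 of 37 against 3.16% of all genes and 4.82% of genes above the limit. There, 11 genes had an unadjusted p under 0.05 in limma (29.7%, beside 22.4% of all genes and 31.3% of genes above the limit). For KR cells it was 0 of 37 against 2.6% of all genes and 3.97% of genes above the limit. There, 5 genes had an unadjusted p under 0.05 in limma (13.5%, beside 20.2% of all genes and 27.8% of genes above the limit). Values closest to the threshold were those of the cyclase LSS, higher in WT than in PR-null cells by 0.60 (adjusted p = 0.000555; its dimmer probes gave 0.39 and 0.035), of SC5D, at -0.56 (adjusted p = 0.000748), and of SREBF1, higher in KR than in PR-null cells by 0.57 (adjusted p = 0.00115). Without PR-null vehicle replicate 2, LSS, SC5D and SREBF1 passed the call rule. Without WT vehicle replicate 2, LSS passed it against PR-null cells and ELOVL5 between KR and WT cells. Among the markers of cell type, ACTA2, a contractile actin, was lower than in PR-null cells with vehicle, with differences of -2.305 in WT (adjusted p = 2.16e-20) and -2.845 in KR cells (adjusted p = 1.88e-23). The luminal keratin KRT18 was lower in KR than in PR-null cells by 0.63 (adjusted p = 9.6e-05). The part of these in the line comparisons was not tested.

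Other genes of lipid metabolism, 55 listed and 49 with a probe, gave the setting for these values. Of the 16 for sterol synthesis, sensing and transport, 0 were called with R5020 in either receptor line. In WT cells limma gave an unadjusted p under 0.05 for 7 (43.8%, beside 25.4% of all genes and 35.6% of genes above the limit). In KR cells it did so for 4 (25%, beside 20.7% of all genes and 28.3% of genes above the limit). Of the 33 for fatty acids and glycerolipids, 1 was called higher and 1 lower in WT cells (6.06%), and 1 higher in KR cells (3.03%). With R5020, 5.29% of all genes were called in WT and 4.08% in KR cells, and 8.07% and 6.22% of genes above the limit. PLIN2, a coat protein of lipid droplets, was 9.81 and 9.69 in WT cells with vehicle and 10.80 and 10.61 with R5020. KR arrays read 9.71 and 9.54 with vehicle and 11.01 and 11.23 with R5020. PR-null arrays read 9.67 and 9.65, and 9.39 and 9.53 with R5020. It rose by 0.96 in WT (1.94-fold, adjusted p = 1.1e-08) and by 1.496 in KR cells (2.82-fold, adjusted p = 3.67e-14). The effects differed by 0.54 (SE 0.16, adjusted p = 0.107), which did not pass the test. A second PLIN2 probe rose in both lines too, by 0.69 and 1.22.

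AGPAT2, an acyltransferase that makes phosphatidate, was 9.61 and 9.65 in WT cells with vehicle and 8.75 and 8.83 with R5020. It fell by 0.84 in WT cells (1.79-fold, SE 0.12, adjusted p = 3.32e-07), and all 3 of its probes fell there. In KR cells it was 9.32 and 9.43 with vehicle and 8.67 and 8.94 with R5020, and its value of -0.57 (adjusted p = 0.000437) was not called. Of the 2 other probes in KR cells, 1 passed the call rule (-0.65, adjusted p = 3.77e-05) and 1 did not (-0.44, adjusted p = 0.00762). In both receptor lines, the R5020 arrays lay below the vehicle arrays. ABCA1, the cholesterol exporter, was 9.15 and 9.08 in KR cells with vehicle, 8.44 and 8.30 in WT cells and 8.21 and 8.34 in PR-null cells. With vehicle it was higher in KR than in WT cells by 0.74 (adjusted p = 1.31e-05) and than in PR-null cells by 0.84 (adjusted p = 2.57e-07). The R5020 difference of ABCA1 was 0.506 in WT (adjusted p = 0.000873, under the threshold of 0.6) and 0.066 in KR cells. Under R5020, KR and WT cells differed in it by 0.301 (adjusted p = 0.119), which was not called.

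**Figure D4:**
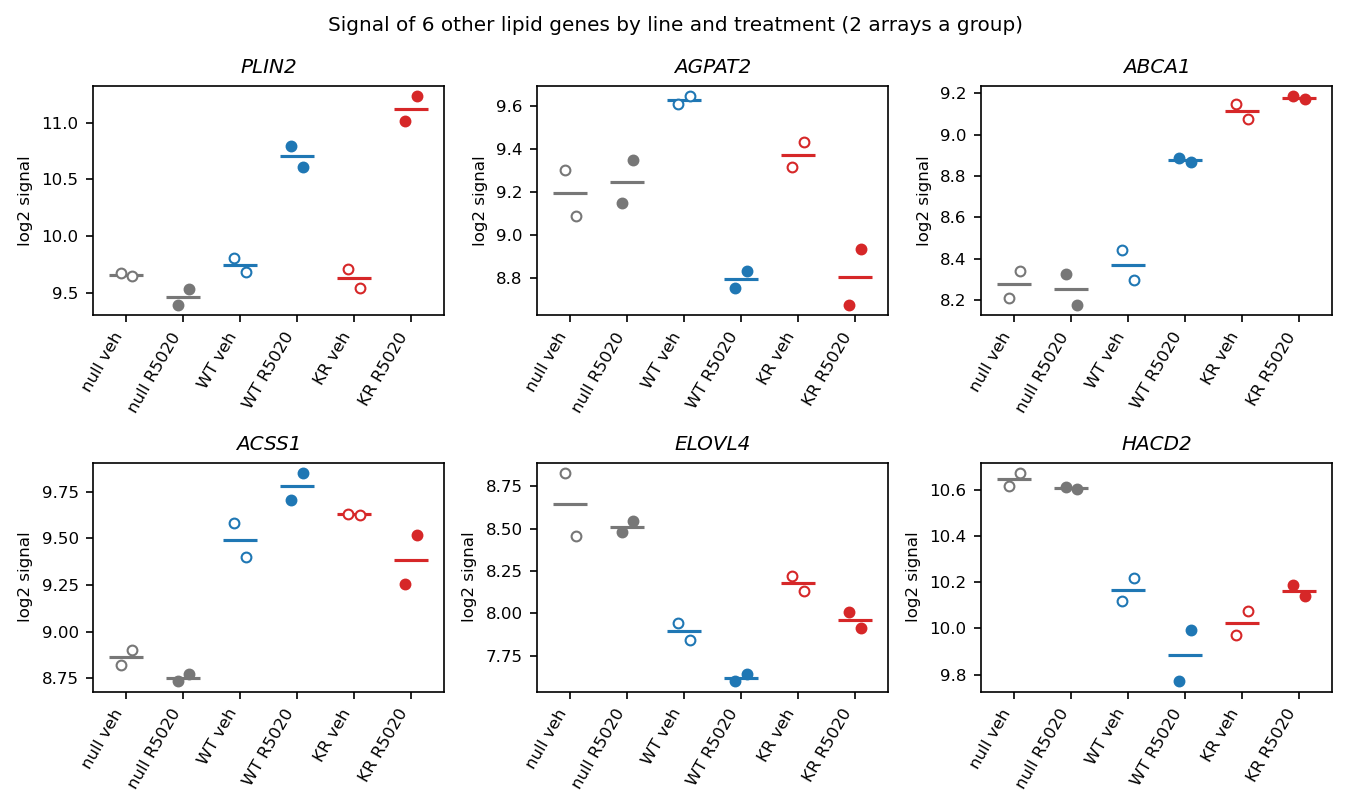
Log2 signal of 6 further lipid genes by line and treatment, with 1 point per array, open for vehicle and filled for R5020, and a bar at the mean of 2 arrays. Axis ranges differ between panels. PLIN2 rises with R5020 in WT and KR cells, and AGPAT2 lies lower with R5020 in both, on a probe called in WT cells only. ABCA1, ACSS1, ELOVL4 and HACD2 differ between lines without hormone.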

How the data were processed

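RNA from T47D-Y cells in 6 groups of line and treatment was measured on 12 arrays, 2 per group. The deposited values are log2 intensities, log-transformed and quantile-normalised by the authors in lumi, whose version is not given in the sources used here. These values were used without further scaling. A separate deposited table of non-normalised signals has 24 columns under codes that the labels do not explain, and it was not used.

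Of 47231 probes, 30113 carried 1 gene symbol, 8 several and 17110 none, and 30074 matched a RefSeq gene identifier. Each gene was read from its brightest probe, a level that cannot be compared between genes. The background limit is the 95th percentile of 457 olfactory receptor probes. All probes were fitted with limma 3.58.1 in R 4.3.3, with 1 mean per group and empirical Bayes moderation (6 residual and 37.1 prior degrees of freedom). P-values were adjusted by Benjamini-Hochberg over all probes of a comparison. They measure the spread between duplicate experiments, with each probe's own spread moderated towards one shared by all probes (prior SD 0.115). The number of arrays limits the precision. Where a probe was under the limit, no fold is given.

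The genes and lists were chosen with earlier results of these data known. Named genes are those called in a comparison, the SREBP regulators, SQLE, ACACA and FASN, genes next to the thresholds, and up to 4 called genes per comparison from the further lipid lists. ELOVL6, SCD and other genes beyond this rule were named after their values were seen. After each group's mean was subtracted, replicate 1 arrays of different groups correlated at -0.0468 to 0.0814 in 15 pairs. These values cover 12587 probes with a mean above 7, and the numbers were therefore not treated as pairs. The fit was tested on simulated data, where it called 98% of probes changed by 0.8 in the WT effect and 72% of those changed by 0.8 between the KR and WT effects. Alternatives were probe choice, background correction, normalisation, a filter on dim probes, a replicate block, the groups fitted, the adjusted p threshold and leaving out each array. Figures were drawn with matplotlib 3.10.9.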

Additional observations from a re-analysis of the deposited data

Results flagged for a closer look

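Effects of R5020 that differed between lines by a test of the difference itself are listed here for a closer look. The effect on LPIN1 was -0.46 log2 units in WT and 0.31 in KR cells, and the KR effect minus the WT effect was 0.77 (SE 0.16, adjusted p = 0.00327). Against PR-null cells, in comparisons added after the data were seen, the WT effect was larger for PLIN2 by 1.15 (adjusted p = 9.5e-07), for ELOVL5 by 0.92, for ACSL1 by 0.88 and for ELOVL1 by 0.61. The WT effect minus the PR-null effect was -0.89 for AGPAT2 (adjusted p = 0.000153), with -0.84 in WT and 0.053 in PR-null cells. For SREBF1 it was -0.72 (SE 0.17), with -0.66 in WT and 0.056 in PR-null cells. Against the same PR-null arrays the KR effect was larger for PLIN2 by 1.70 (adjusted p = 8.39e-11), for ELOVL5 by 1.09 and for ACSL1 by 0.98. ELOVL5, ACSL1 and PLIN2 thus appear in both receptor lines, in comparisons that share their PR-null arrays.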

How the results depend on the processing

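Counts of called genes among the 37 stayed within 1.5 times the reported count, in each of the 10 comparisons, under mean over probes, normexp background correction, cyclic loess, the filter on dim probes, the replicate block, only the groups compared and, where run, an adjusted p under 0.05. With the replicate number as a block, 3 genes were called for R5020 in WT cells, 3 in KR cells and 1 for their difference, and the ELOVL1 difference of 0.61 between WT and PR-null effects had an adjusted p of 0.0106. The block changed no other call among the named genes. That ELOVL1 call was also lost under normexp (0.60), and with only the groups compared. Leaving out 1 array, which leaves fewer samples in the fit, gave 0 to 0 called genes in PR-null cells, 2 to 4 in WT and 2 to 3 in KR cells, 0 to 1 for the difference between KR and WT effects, 2 to 4 for WT minus PR-null effects and 2 to 3 for KR minus PR-null effects. It gave 0 to 2 for WT against PR-null and 0 to 1 for KR against PR-null cells with vehicle, 0 to 2 for KR against WT cells with vehicle and 2 to 4 with R5020. The calls of ELOVL5 and ACSL1 for R5020 in both receptor lines, of PLIN2 in both, of AGPAT2 in WT cells and of AACS held in every setting run. Of 524 values of single genes under alternatives, 484 kept their direction and their side of the thresholds, 32 lost a call and 8 changed sign, all 8 with 1 array left out and none called with or without it. With 1 array left out, the R5020 difference in WT cells ran from -0.04 to 0.132 for SREBF2, from -0.06 to 0.266 for INSIG1, from -0.028 to 0.096 for ACACA and from -0.309 to 0.213 for FASN, and in KR cells from -0.217 to 0.152 for SREBF2 and from -0.046 to 0.155 for INSIG2. The median over the 37 genes changed sign in 16 of 112 alternatives. Depth on arrays is signal over background, which limits SREBF2, ACACB, ME1 and STARD4.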

Other observations

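Further lipid genes differed between the lines without hormone. ACSS1, the mitochondrial acetyl-CoA synthetase, was 8.82 and 8.90 in PR-null, 9.58 and 9.40 in WT and 9.63 and 9.63 in KR cells. It was higher than in PR-null cells by 0.63 in WT (adjusted p = 9.22e-05) and by 0.77 in KR cells (adjusted p = 3.2e-06). The WT call was lost without PR-null vehicle replicate 1 (0.59) and without WT vehicle replicate 1 (0.54). ELOVL4, an elongase of very long chains, was 8.83 and 8.46 in PR-null and 7.95 and 7.84 in WT cells, a fall of 0.75 (adjusted p = 5.92e-06) that was -0.56 without PR-null vehicle replicate 1. In KR cells ELOVL4 was 8.22 and 8.13, lower than in PR-null cells by 0.47 (adjusted p = 0.00722), under the threshold of 0.6. KR and WT cells were not shown to differ in it (0.28, adjusted p = 0.281). HACD2, a dehydratase of the elongation cycle, was lower in KR than in PR-null cells by 0.62 log2 units (adjusted p = 9.15e-05), a call lost with the mean over its probes (-0.47), without PR-null vehicle replicate 2 (-0.59) and without KR vehicle replicate 1 (-0.57). In WT cells HACD2 was lower than in PR-null cells by 0.48 (adjusted p = 0.00279), under the threshold. The KR and WT lines were not shown to differ in it (-0.145, adjusted p = 0.707). The receptor lines were grown from single cells, so these differences cannot be told apart from differences between clones.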
